A study of Xenopus tropicalis with 12 samples.

Results

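In the intestine of Xenopus tropicalis tadpoles, 51 genes rose at the climax of metamorphosis to a similar level with and without thyroid hormone receptor (TR). They were chosen by the measured values among the 19921 Ensembl gene IDs of the count table. A member had a mean normalised count of at least 100 in wild-type tadpoles at stage 61, at least 4 times the stage 54 mean in each genotype, and a TRDKO mean at stage 61 within 2-fold of the wild-type mean. A normalised count here is the read count divided by the size factor of its library, a median of ratios over genes with reads in all 12 libraries. Gene length does not enter it, so values are compared between libraries for the same gene and not between genes.

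Poly-A-selected RNA of whole intestine was sequenced, with 3 libraries for each genotype at stage 54, before metamorphosis, and at stage 61, its climax. Wild-type tadpoles carried both receptor genes, TRα and TRβ (TRα+/+ TRβ+/+). TRDKO tadpoles were homozygous knockouts of both (TRα-/- TRβ-/-) and came from parents that lacked TRα and had 1 intact copy of TRβ. Lines with different TRβ deletions were in use, and the line sequenced is not given in the sources used here. The methods for RT-PCR describe RNA made from the joined tissue of several animals of a genotype, and those for sequencing do not say whether this RNA was the same. The study calls the samples biological replicates, but the labels give only a replicate number, so p-values measure the spread between these libraries, which may be technical in part.

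The libraries held 20112705 to 37936503 counts. All libraries of a group correlated at 0.992 or more in log2 abundance across genes except TRDKO stage 54 replicate 3, which correlated at 0.951 and 0.950 with the other libraries of its group. This library stands apart, and the stage 54 results are also given without it where it moved them. The count table does not pair the IDs with gene names, and 0 of the IDs were found in the gene table at hand. The function of the members, the TR genes themselves and marker genes of intestinal cell types were therefore not examined, and 4 members are given by ID. In whole intestine, more cells of a type and more RNA per cell cannot be told apart.

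By way of background, thyroid hormone (T3) drives frog metamorphosis through TR, a nuclear receptor that sits on its target genes. Without hormone TR recruits corepressors and holds these genes down, and with hormone it recruits coactivators and switches them on. Loss of TR can therefore remove activation at climax and also remove repression before it. In the intestine, climax is the time when the larval epithelium dies, adult epithelial stem cells form and proliferate, and connective tissue and muscle thicken.

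The members are a small part of the climax response. In wild-type tadpoles, 1585 genes had a mean of at least 100 at stage 61 and rose at least 4-fold. In TRDKO tadpoles at stage 61, 935 of these lay more than 2-fold below the wild-type mean, 30 lay more than 2-fold above it and 620 lay within 2-fold. Of the 620, 51 rose at least 4-fold in TRDKO tadpoles, which is 8.23% of them and 3.22% of the 1585. A further 220 rose 2- to 4-fold, 309 rose less than 2-fold and 40 were lower at stage 61 than at stage 54. Most genes that stood near the wild-type climax level in TRDKO tadpoles thus had a small stage difference in that genotype. Counted from TRDKO tadpoles, 170 genes had a mean of at least 100 at stage 61 and a rise of at least 4-fold. The rule set no such floor on the TRDKO mean, which was as low as 78.7 in a member. Not all of the 51 members are therefore among the 170.

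**Figure D1:**
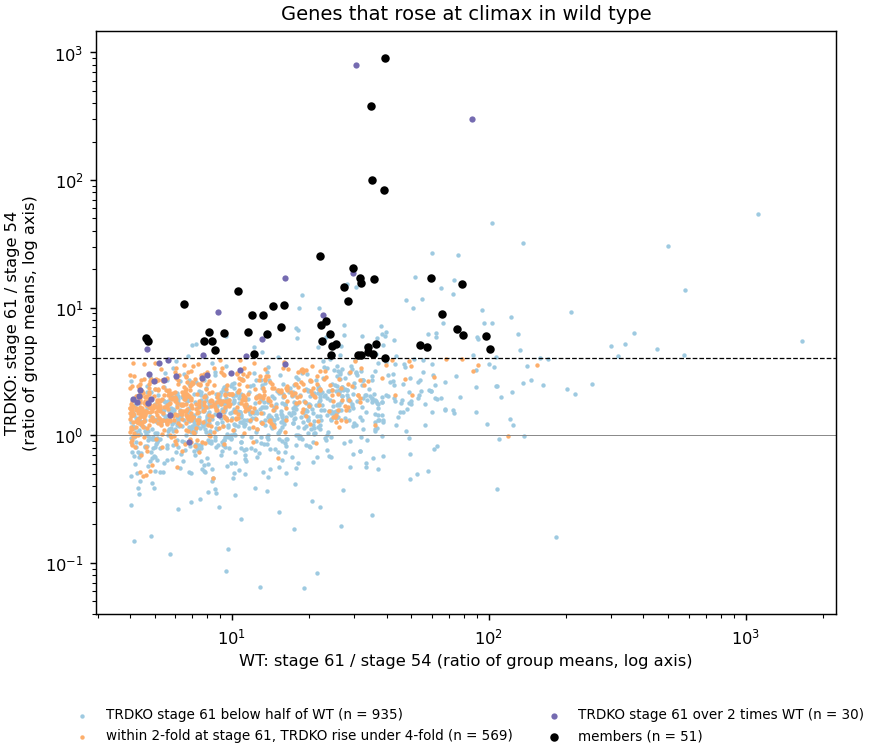
Ratio of the stage 61 to the stage 54 mean in wild-type tadpoles (x axis) and TRDKO tadpoles (y axis), both on log axes, for the 1585 genes that met the wild-type part of the rule. Group means at stage 54 under 3 counts per library were set to that floor. The 51 members (black) lie above the dashed line at 4, and most of the 569 genes within 2-fold of wild type at stage 61 that missed it (orange) lie between 1 and 4.

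The members' summed normalised count shows the pattern in every library. In wild-type libraries it was 2056, 2132 and 2119 at stage 54 and 38553, 38537 and 38127 at stage 61. In TRDKO libraries it was 3882, 3801 and 5595 at stage 54 and 38546, 37977 and 38543 at stage 61. The rule fixed that both genotypes rose and ended close together, while the stage 54 sums, which it capped but did not tie to each other, did not overlap between genotypes. The 2 members with the most reads made up 21.7% of the wild-type sum at stage 61 and the 10 with the most made up 61.4%. The stage 61 sums thus speak mainly for these. At stage 54 the same 2 members gave 237, 242 and 204 of the wild-type sums and 13.1, 11.8 and 25.9 of the TRDKO sums. They ran against the higher TRDKO sums at that stage, which came from other members. As a share of all reads, the members took 0.00491% to 0.00508% in wild-type tadpoles at stage 54 and 0.215% to 0.219% at stage 61, and in TRDKO tadpoles 0.0138% to 0.0194% and 0.136% to 0.139%.

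Over single members, the median of the wild-type mean was 11.1 at stage 54, with a range of 0 to 265, and 329 at stage 61, with a range of 108 to 4574. The median of the TRDKO mean was 37.6 at stage 54, with a range of 0 to 467, and 314 at stage 61, with a range of 78.7 to 4730. No member had overlapping libraries between the stages in either genotype, as the rule makes likely. The libraries of a group lay close together at stage 61, with a median coefficient of variation of 4.08% in wild-type and 4.65% in TRDKO tadpoles. At stage 54 this was 20.2% over the 49 members with reads in wild-type tadpoles and 29.6% over the 50 with reads in TRDKO tadpoles. With replicates 1 and 2 alone, the TRDKO value was 12.4%.

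**Figure D2:**
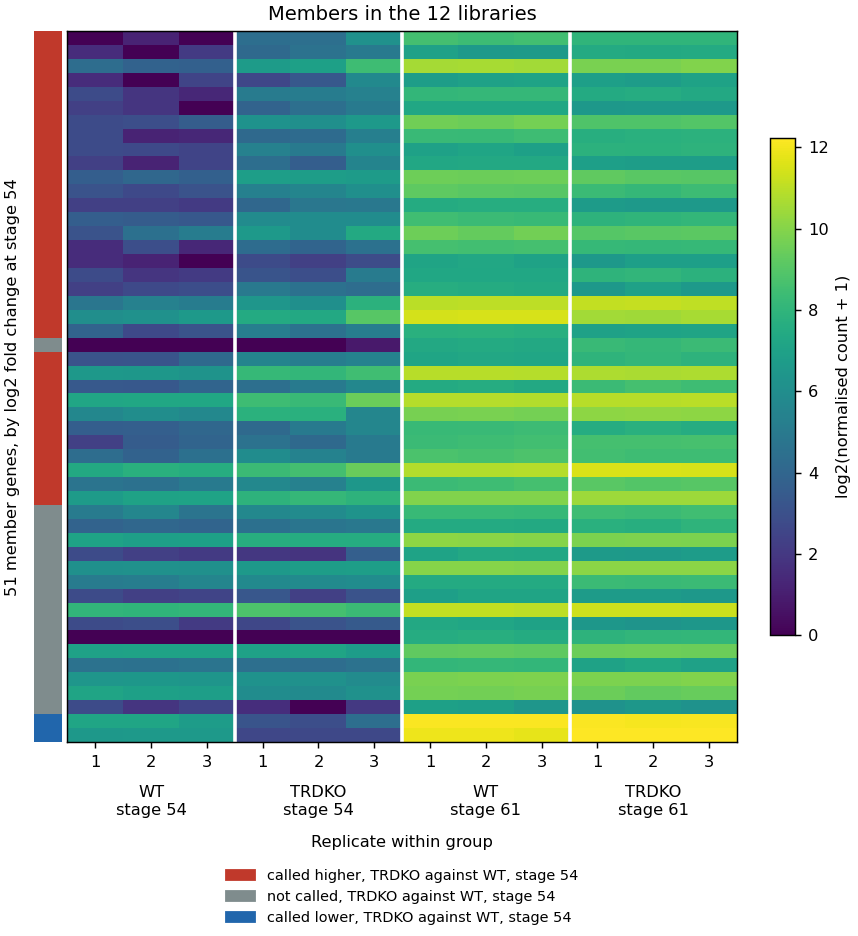
log2(normalised count + 1) of the 51 members (one line each, sorted by the log2 fold change of TRDKO against wild type at stage 54, highest at the top) in the 12 libraries. The bar at the left marks the 33 members whose stage 54 level was called higher in TRDKO tadpoles, the 16 not called and the 2 called lower. Both blocks of stage 61 are alike, and the TRDKO block of stage 54 is lighter than the wild-type block in most lines.

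Both genotypes rose, but from different starting points. The stage ratio had a median of 27.3 in wild-type tadpoles, with values under the floor of 3 counts per library set to it, and 34 of the 51 members rose 20-fold or more. In TRDKO tadpoles the median ratio was 6.43, 12 members rose 4- to 5-fold, 22 rose 5- to 10-fold, 11 rose 10- to 20-fold and 6 rose 20-fold or more. With low values set to the floor of each genotype, the wild-type ratio was the larger in 42 of the 51 members. The floor differed between genotypes, so members at it in both cannot be ranked. This count stands without a share of all tested genes. edgeR's quasi-likelihood test over the 13954 genes that passed the filter on low counts, with Benjamini-Hochberg adjustment, called all 51 upregulated in both genotypes. A call required an adjusted p under 0.05 together with a difference over 2-fold. These calls are a description, since the rule used the contrasts (30.4% of all tested genes were upregulated in wild-type and 12.5% in TRDKO tadpoles).

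The difference between the stage effects is also bounded by the rule, through the stage 61 means. The interaction test called 34 members with a smaller stage effect without TR at an adjusted p under 0.05, 4 with a larger one and 13 neither way. Over all tested genes, 37.5% had a smaller effect, 30% a larger one and 32.4% neither. The median difference of the members was -1.56 on the log2 scale, beside -0.18 over all tested genes.

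At stage 61 the rule kept the genotypes within 2-fold, and within this window the members still separated. The TRDKO mean was below the wild-type mean in 29 members and above it in 22, with a median ratio of 0.845. The means lay within 1.3-fold in 17 members. With the scaling of the edgeR fit, every TRDKO library lay below every wild-type library in 27 members and above in 20, beside 47.2% and 37.8% of all tested genes. At an adjusted p under 0.05 with no fold threshold, 21 members were lower and 13 higher in TRDKO tadpoles, and 17 did not pass, beside 39.4%, 30.8% and 29.8% of all tested genes. These shares are near those of all genes and say nothing particular of the members. With the 2-fold threshold, 1 member was called lower and 0 higher (20.1% and 14.1% of all tested genes). That member had 274 to 279 normalised counts in wild-type libraries and 129 to 153 in TRDKO libraries at stage 61, and 22.9 to 25.3 and 19.7 to 23.6 at stage 54. It sits at the edge of the window, and the call was lost with RLE size factors.

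At stage 54 most members were already higher without TR. This is the contrast the rule did not use directly, although its 4-fold rise capped each stage 54 mean. The edgeR test called 33 members (64.7%) higher in TRDKO tadpoles, beside 21.7% of all tested genes, and 2 lower, beside 12% of all tested genes. With the adjusted p alone, 39 were higher and 4 lower, and 8 did not pass, beside 37.6%, 31.8% and 30.6% of all tested genes. The TRDKO libraries lay above all wild-type libraries in 38 members, below in 4 and overlapped in 9, beside 35.8% of all tested genes that lay wholly above and 32.6% wholly below. The median log2 fold change of the members was 1.65, beside 0.12 over all tested genes. As a ratio of group means with low values set to the floor, the median was 3.003.

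A raised level at stage 54 was not particular to the members. Of all 1585 genes that met the wild-type part of the rule, 1099 (69.3%) were called higher in TRDKO tadpoles at stage 54, with a median log2 fold change of 1.62. In the 569 genes that stood within 2-fold of wild type at stage 61 but rose less than 4-fold in TRDKO tadpoles, 501 (88.0%) were called higher. In the 935 that stayed more than 2-fold below wild type, 537 (57.4%) were called higher. All these genes were chosen as low in wild-type tadpoles at stage 54, from the libraries of this contrast, which raises each share, and the cap on the TRDKO mean at stage 54 lowers that of the members. Beside the 569, the members had lower stage 54 means in both genotypes, with a median of 37.6 against 163 in TRDKO and of 11.1 against 42.2 in wild-type tadpoles. The rule itself requires part of the TRDKO difference. Its limit on the wild-type mean at stage 54 was the same for both sets. Genes chosen as low in TRDKO tadpoles at stage 54 can also be low in wild-type tadpoles, however. The wild-type difference is therefore not independent of the rule either. These are different genes, so the medians describe the sets and do not compare transcript levels.

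**Figure D3:**
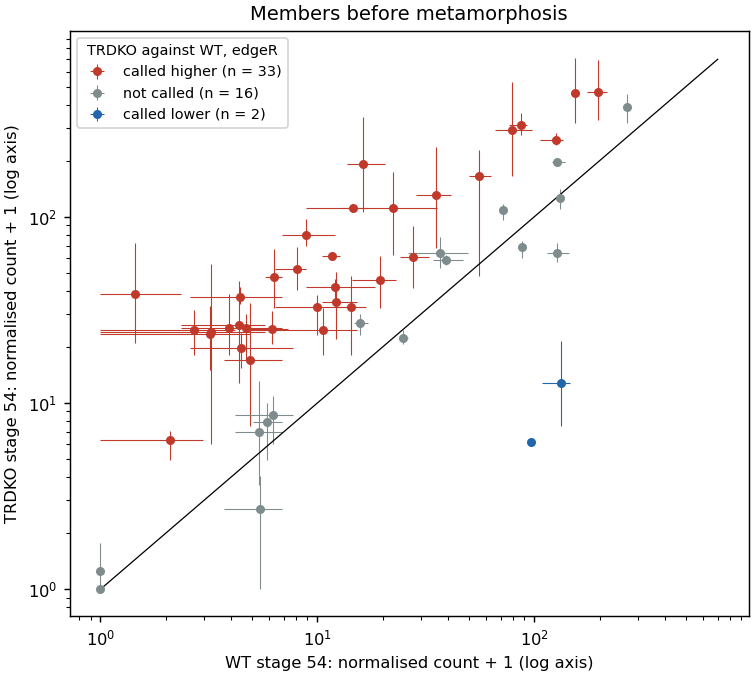
Mean normalised count + 1 at stage 54 in wild-type (x axis) and TRDKO tadpoles (y axis) for the 51 members, on log axes, with bars from the lowest to the highest of the 3 libraries. The line marks equal levels, with 33 members called higher (red), 16 not called (grey) and 2 called lower (blue) in TRDKO tadpoles.

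The 33 members called higher at stage 54 had a median of 9.64 normalised counts in wild-type and 40.8 in TRDKO tadpoles at that stage. At stage 61 their medians were 344 and 287. Their summed count in TRDKO libraries at stage 54 was 2687, 2644 and 4482, against 865, 959 and 993 in wild-type libraries. Their rise had a median of 31.8-fold in wild-type tadpoles and 5.995-fold in TRDKO tadpoles. The interaction test gave 28 of them a smaller stage effect in TRDKO tadpoles and left 5 uncalled, beside 37.5% of all tested genes with a smaller effect. The class was formed by the stage 54 test and the rule held stage 61 within 2-fold. A smaller stage effect follows largely from these choices and is a description only. In 10 of these members every wild-type library at stage 54 held 3 counts or fewer, so these transcripts were barely detected there. Ranked by mean normalised count in TRDKO libraries of that stage, the lowest of these had raw counts of 6, 3 and 8 there. The highest had 20, 16 and 94, mainly through replicate 3, and the next had 33, 26 and 54. The lowest is thus near the floor itself. Others had 5, 7 and 72 or 8, 5 and 44 and rest mainly on replicate 3.

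Among the called members that averaged at least 100 normalised counts and did not overlap between genotypes, the 2 with the largest fold change at stage 54 show how it looked in single libraries. In wild-type tadpoles at stage 54, ENSXETG00000031873 had 0, 1 and 0 counts. In TRDKO libraries it had 20.1, 21.0 and 71.6 normalised counts (37.6 ± 29.5, SD, n = 3). The TRDKO mean was at least 7.69-fold higher than the floor of 3 counts per wild-type library. The edgeR test was of the fitted log2 fold change of 5.96 (adjusted p = 0.000253), which rests on 0 to 1 wild-type counts and not on this floor. At stage 61 it reached 387, 339 and 374 normalised counts in wild-type and 254, 257 and 254 in TRDKO libraries, a rise of at least 75.1-fold in wild-type and of 6.79-fold in TRDKO tadpoles. All 3 TRDKO libraries at stage 54 lay above the wild-type libraries, and replicate 3 lay at 3.49 times the mean of the other TRDKO libraries. Without replicate 3, the TRDKO mean at stage 54 was at least 4.21-fold higher than the wild-type floor and the TRDKO rise was 12.4-fold.

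ENSXETG00000011119 was low but detected in wild-type tadpoles at stage 54, with 19.6, 13.5 and 12.6 normalised counts. The TRDKO libraries had 104, 125 and 342 at that stage, again with replicate 3 highest and no overlap with wild type. The log2 fold change between genotypes was 3.72 (standard error 0.52, adjusted p = 7.21e-05, edgeR), and without replicate 3 it was 2.94. At stage 61 the wild-type libraries had 1512, 1602 and 1494 normalised counts and the TRDKO libraries 866, 866 and 955. The wild-type rise was 101-fold and the TRDKO rise 4.70-fold, or 7.82-fold without replicate 3.

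The 2 members called lower at stage 54 took the opposite course, and were the only members that met both the fold threshold and the adjusted p in that direction. ENSXETG00000025667 had 91.9, 98.5 and 96.3 normalised counts in wild-type libraries at stage 54 and 5.02, 5.25 and 5.33 in TRDKO libraries. The log2 fold change between genotypes was -4.15 (standard error 0.11, adjusted p = 7.87e-10, edgeR). It rests on TRDKO raw counts of 5, 4 and 7 that lay close together. DESeq2, another test, gave -4.20 with a larger standard error of 0.38. At stage 61 it had 3859, 3907 and 3519 in wild-type and 4821, 4665 and 4703 in TRDKO libraries, so that it rose 39.4-fold in wild-type and 909-fold in TRDKO tadpoles. The TRDKO rise rests on 4 to 7 raw counts at stage 54.

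ENSXETG00000025664 followed the same course. Its wild-type libraries had 145, 143 and 107 normalised counts at stage 54 and its TRDKO libraries 8.04, 6.56 and 20.6, a difference of -3.33 on the log2 scale (standard error 0.26, edgeR adjusted p = 8.31e-07). At stage 61 the wild-type libraries had 4619, 4549 and 4555 and the TRDKO libraries 4577, 4288 and 4506. The groups overlapped at stage 61 and did not at stage 54. The rise was 34.7-fold in wild-type and 380-fold in TRDKO tadpoles. Without TRDKO stage 54 replicate 3, the highest of its group, the log2 difference at stage 54 was -4.11 and the TRDKO rise was 611-fold. Its TRDKO libraries held 8, 5 and 27 raw counts at stage 54, so both TRDKO rises rest on few reads.

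**Figure D4:**
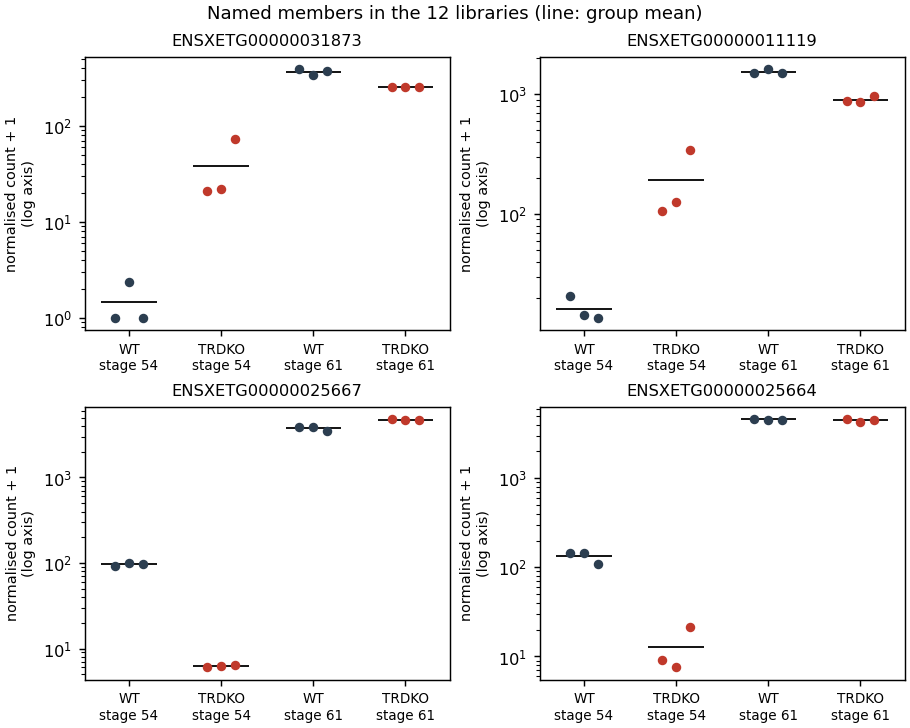
Normalised count + 1 (log axis) of the 4 named members in each library, with lines at the group means of 3 libraries. ENSXETG00000031873 and ENSXETG00000011119 were higher in TRDKO (red) than in wild-type libraries (dark) at stage 54, and ENSXETG00000025667 and ENSXETG00000025664 were lower, while at stage 61 each gene lay within 2-fold between genotypes.

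The other 16 members were not called at stage 54. Their summed count was 955, 931 and 923 in wild-type and 1182, 1145 and 1087 in TRDKO libraries at stage 54, and 8485, 8537 and 8256 against 8803, 8763 and 8840 at stage 61. They rose by a median of 11.8-fold in wild-type and 10.5-fold in TRDKO tadpoles, and these medians lay closer together than those of the 33 members called higher. The interaction test left 8 of the 16 uncalled and gave 6 a smaller and 2 a larger stage effect in TRDKO tadpoles. Over all tested genes, 32.4% were uncalled, 37.5% had a smaller effect and 30% a larger one. As the class was formed by the stage 54 test, this is a description of it. Of the 16, 8 had an adjusted p under 0.05 at stage 54 (edgeR) and missed only the fold threshold. A test that a gene does not pass does not show equal levels.

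Of these 16, 2 members had almost no reads in either genotype before metamorphosis. Their wild-type libraries at stage 54 held 0 counts and their TRDKO libraries 0 to 1. At stage 61, one reached 187, 204 and 184 normalised counts in wild-type and 240, 264 and 274 in TRDKO libraries, a rise of at least 39.2-fold and at least 84.2-fold over the floor of 3 counts per library. The other reached 166, 179 and 168 in wild-type and 316, 282 and 326 in TRDKO libraries, a rise of at least 35.0-fold and at least 100.01-fold. In both members, every TRDKO library at stage 61 lay above every wild-type library. The floor averaged 4.88 normalised counts in wild-type and 3.08 in TRDKO libraries, so these bounds are not to be compared between genotypes.

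Another of the 16 came close to the same course in both genotypes at a higher level. It had 86.1, 89.1 and 83.6 normalised counts in wild-type and 73.3, 72.1 and 58.7 in TRDKO libraries at stage 54. At stage 61 it had 878, 908 and 936 in wild-type and 900, 896 and 958 in TRDKO libraries. The genotypes overlapped at stage 61 and differed little but without overlap at stage 54. The log2 difference at stage 54 was -0.34 (adjusted p = 0.0305, edgeR). Its stage effect was called larger in TRDKO tadpoles by the interaction test, by 0.33 on the log2 scale (adjusted p = 0.0380, edgeR). This gene, like those in the paragraphs on the silent pair and on the window at stage 61, was picked after its values were seen.

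In TRDKO tadpoles at stage 54, replicate 3 lay above the other libraries in most members. It was the highest of the 3 libraries in 38 of the 51 members, beside 46.9% of all 13394 genes with a mean normalised count of at least 10. It lay more than 2-fold above the mean of replicates 1 and 2 in 14 members (27.5%), beside 7.35% of those genes. More than 2-fold below lay 1 member (1.96%), beside 10.1% of those genes. Among the 33 members called higher it was the highest library in 26. Its part in the genotype difference can be read from the fit without it, in which 29 members were called higher and 3 lower, beside 21.5% and 12.5% of all genes tested without it, and the median log2 fold change was 1.15. In a count added after the data were seen, replicates 1 and 2 both lay above every wild-type library in 39 members and below in 7, beside 43.9% and 40.1% of all tested genes. With the TRDKO mean at stage 54 taken from replicates 1 and 2, the median rise of the members in TRDKO tadpoles was 8.22-fold in place of 6.43-fold.

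**Figure D5:**
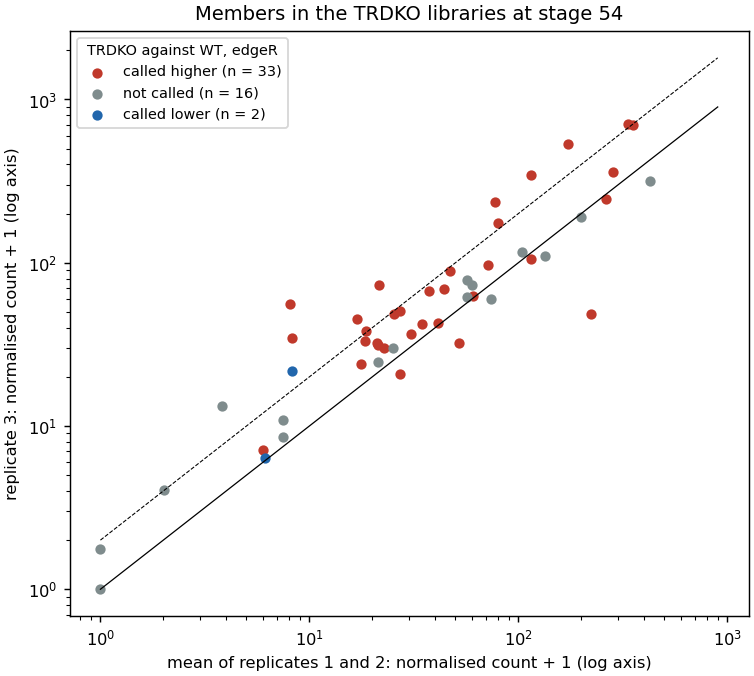
Normalised count + 1 of the 51 members in TRDKO stage 54 replicate 3 (y axis) against the mean of replicates 1 and 2 (x axis), on log axes, coloured by the stage 54 call. The solid line marks equal values and the dashed line a 2-fold excess in replicate 3, with 14 members more than 2-fold above.

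The membership itself depended on that library. Without it, 79 genes met the rule, of which 49 were among the 51. The 30 genes added had a median TRDKO stage ratio of 3.29 with all libraries, and replicate 3 lay at a median of 2.15 times the mean of the other TRDKO libraries in them. With any other library left out, 46 to 54 genes met the rule, and 39 of the 51 members stayed in every one of the 12 fits without a library.

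The thresholds cut through a continuous range. The members nearest the limit of 4 had TRDKO ratios of 4.06, 4.22 and 4.22, and the genes just outside had 3.97, 3.95 and 3.88. For the wild-type ratio the nearest members had 4.61, 4.69 and 6.51 and the nearest others 3.95, 3.70 and 3.35. The lowest wild-type means at stage 61 inside the rule were 108, 108 and 125, and those just outside 97.5, 97.4 and 95.0. At the window of 2-fold, ratios of TRDKO to wild type of 0.500, 0.510 and 0.533 were inside and 0.491, 0.490 and 0.480 outside, and at its upper edge 1.998, 1.80 and 1.78 were inside and 2.01, 2.12 and 2.20 outside.

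Membership also depended on the scaling. The size factors ran from 0.511 to 0.741 in wild-type libraries at stage 54 and from 1.13 to 1.91 at stage 61, and from 0.762 to 1.31 in all TRDKO libraries. With library totals in place of size factors, 50 genes met the rule but only 28 of them were among the 51. In an edgeR fit by library totals, the median log2 fold change of the members between genotypes at stage 61 was -0.90 in place of -0.27, with that of all tested genes at -0.75 in place of -0.11. In that fit 23 members were called lower in TRDKO tadpoles. The share of all tested genes called lower with that scaling was not computed, so the count shows nothing particular to the members. That the members reached the wild-type level is thus a statement relative to the bulk of genes.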

How the data were processed

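RNA from whole intestine was sequenced in 12 libraries. The authors mapped reads with STAR 2.6.1c to the Ensembl Xenopus tropicalis genome and counted them per gene with featureCounts 1.6.3 (versions from the submitters' processing notes and the paper). The deposited values are raw read counts, whole numbers without normalization. The strand setting and the treatment of reads matching several genes are not given in the sources used here, so counts of overlapping or near-identical genes are uncertain.

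Columns were matched to libraries by name. Members were found with median-of-ratios size factors over 12983 genes. The members, lists and tests were chosen with earlier results of these data known. Tests used edgeR 4.0.16 in R 4.3.3 on the 13954 genes kept by filterByExpr, scaled by TMM, with a quasi-likelihood fit of all 12 libraries by group and Benjamini-Hochberg adjustment over these genes. Standard errors came from the F statistic. The tests were tried on simulated data. Fold changes against groups at or under 3 counts in every library are bounds against 3 counts per library, which cover counting error only. At the depths here, 3 counts are 1.57 to 5.87 normalised counts. Members to be named had to be called at stage 54, show no overlap between genotypes there and average at least 100 normalised counts. The 2 largest changes each way were taken from the 24 higher and 2 lower members that qualified. Gene lists and cell type markers planned by symbol were not run, since 0 of 19921 IDs matched the RefSeq gene table (assembly UCB_Xtro_10.0). Alternatives were RLE factors, library size alone, other filters, DESeq2 1.42.0, fits on 6 libraries, no fold threshold, glmTreat, a replicate block, other limits of the rule, and each library left out. Figures were drawn with matplotlib 3.10.9.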

Additional observations from a re-analysis of the deposited data

Results flagged for a closer look

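The stage effect differed between genotypes by the interaction test in 38 of the 51 members (edgeR, adjusted p under 0.05), with 34 smaller and 4 larger in TRDKO tadpoles, beside 37.5% and 30% of all tested genes. The 4 named members were chosen for their genotype difference at stage 54, which is one part of the interaction. The difference of the log2 stage effects, TRDKO minus wild type, was -4.52 for ENSXETG00000011119 (standard error 0.61, adjusted p = 5.98e-05, edgeR). For ENSXETG00000031873 it was -6.51 (standard error 1.04, adjusted p = 0.000216, edgeR), a fitted value that rests on 0 to 1 counts in wild-type libraries at stage 54 and is no bound. It was 4.46 for ENSXETG00000025667 (standard error 0.13, adjusted p = 4.22e-10, edgeR) and 3.27 for ENSXETG00000025664 (standard error 0.31, adjusted p = 3.42e-06, edgeR). The value for ENSXETG00000025667 rests on 4 to 7 raw counts in TRDKO libraries at stage 54, so its small standard error is to be read with care. The test for a single far value within a group was not run, since groups of 3 libraries are too small for it. TRDKO stage 54 replicate 3 stands apart by its correlations with its group.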

How the results depend on the processing

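The number of genes that met the rule was 82 with a stage 61 mean of at least 50 and 32 with 200, 112 with a 3-fold and 30 with a 6-fold rise, 30 within 1.5-fold and 77 within 3-fold at stage 61, and 46 to 79 with each library left out, the highest without TRDKO stage 54 replicate 3. Of 287 recomputed values, 260 kept their direction and their side of the threshold, or stayed within 1.5 times or the spread between libraries. A reversal could be recorded only for the named members and the median, and 0 were. The tally also holds values that could hardly move, such as the members upregulated at stage 61, which the rule fixed. It is therefore no measure of robustness. At stage 54, 22 members (glmTreat) to 41 (library size alone) were called higher, and 29 to 33 with each library left out. At that stage 2 to 3 were called lower with each library left out and 4 with no fold threshold. The members' median log2 fold change ranged from 1.15 to 1.83, the lowest without TRDKO stage 54 replicate 3, and was 2.17 with library size alone. Library size alone also shifted the bulk of genes at stage 54, whose median was 0.69, against 0.12 with TMM. The interaction gave 32 to 46 members a smaller effect in TRDKO tadpoles over the other settings and 31 to 37 with each library left out. It gave a larger one in 2 with library size alone and 3 to 5 with each library left out. The 46 came with library size alone, where the bulk of genes had a median difference of -1.38, against -0.18 with TMM. Most of these counts stand without a share of all tested genes, and those show nothing particular to the members. At stage 61, members called lower numbered 0 with RLE factors, the 6-library fit and glmTreat, 2 without the filter, 23 with library size alone, 21 with no fold threshold and 0 to 1 with each library left out. Those called higher numbered 1 in the 6-library fit, 13 with no fold threshold and 0 to 1 with each library left out. Libraries with the same replicate number did not deviate together (correlations of -0.03 to 0.04 over 18 pairs), so no pairing by number was seen. This cannot show that the libraries were unpaired, since a weak shared deviation could be missed. With the replicate block, 33 members were higher and 2 lower at stage 54, with a median of 1.65, and 32 had a smaller and 3 a larger stage effect. The count of a gene at stage 54 limits its fold change, since 15 members held 3 counts or fewer in every wild-type library.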
